A study of Mus musculus with 15 samples.

Results

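The 10 genes described here lie beside Ikzf4 on mouse chromosome 10, and were taken as a list by symbol, chosen with earlier results of these data known. They are Rnf41, Smarcc2, Esyt1, Zc3h10, Pa2g4, Erbb3, Suox, Rab5b, Cdk2 and Dgka, out of 19938 genes with a probe set of a single symbol. They are read by 11 probe sets, since Rab5b has 2, and all 10 genes passed the filter on low signal that left 10964 genes for testing. In the gene order of the mouse reference, Rnf41 is 10 genes before Ikzf4 and Dgka is 5 genes after it. Suox and Rab5b are the next genes on one side, and Erbb3 and Pa2g4 are 2 and 3 genes away on the other. Rps26, the gene directly beside Ikzf4 on that other side, had no probe set of a single symbol and was not tested.

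Ikzf4 encodes Eos and Ikzf2 encodes Helios, zinc finger transcription factors of the Ikaros family that are abundant in regulatory T cells (Treg), the Foxp3-expressing CD4 T cells that restrain immune responses. In a mouse made by gene targeting, the altered locus is inherited together with the DNA around it, which can come from the embryonic stem cell strain. A change in the targeted DNA can also act on the genes beside it. Signals of neighbouring genes are therefore a common check in a knockout, and the question here was whether any of them moved with the altered Ikzf4 locus.

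RNA came from CD4+CD25+ cells sorted from spleen, and 15 ng of total RNA was amplified for each of 15 arrays. One set of arrays held wild type (WT) 1 to 3, Ikzf4-/- 1 to 3 and the double knockout Ikzf2-/-Ikzf4-/- (dKO) 1 to 3. Another held WT 4 to 6 and Ikzf2-/- 1 to 3, in which Ikzf4 was not targeted. All groups were of the same sorted cell type, and the labels give no further treatment. The sources used here do not give the strain, the age of the mice, the targeting design or whether each array came from a separate animal. The p-values therefore measure only how far these arrays spread, and that spread may be technical in part or, in the second set, in full. Eif2s3y, a gene of the Y chromosome, was high in some arrays and low in others of each first-set group, as given below. The arrays of such a group therefore did not all come from the same animal.

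The 2 sets appear to have been normalized apart. Pairs of arrays within the first set held identical values in a mean of 2286 probe sets, pairs within the second in 34.4, and pairs across the sets in 0.0741. WT 4 to 6 were below WT 1 to 3 for each of the 10 genes, from -0.98 for Rnf41 to -0.16 for Zc3h10 on the log2 scale, and the median over all tested genes was -0.38. Levels are therefore compared only within a set. Foxp3 was between 10.10 and 11.16 in all 15 arrays, lowest in Ikzf2-/- 2, so the sorted cells carried the defining Treg marker. Mean signal of the B cell markers (12 of 12 measured passed the filter) was 4.36 to 6.40 in WT 1 to 3, 4.31 to 4.42 in Ikzf4-/- and 4.30 to 4.33 in dKO, against 4.89 to 5.09 in WT 4 to 6 and 4.81 to 7.38 in Ikzf2-/-. That of the neutrophil markers (7 of 7) was 4.46 to 7.42, 4.38 to 5.18, 5.20 to 5.96, 5.10 to 5.76 and 6.16 to 9.43 in the same order. The upper ends in WT 1 to 3 were both WT 1. WT 2 and WT 3 were at 4.36 and 4.36 for the B cell markers and at 4.46 and 5.02 for the neutrophil markers. Those in Ikzf2-/- were both Ikzf2-/- 3. In bulk samples, fewer cells of a type and less RNA per cell cannot be told apart.

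The Ikzf4 probe set did not fall in the cells labelled as lacking it. Its log2 signal was 7.83, 8.07 and 8.02 in WT 1 to 3, 8.22, 8.13 and 8.19 in Ikzf4-/- and 8.20, 8.07 and 8.11 in dKO. Every Ikzf4-/- array was above every WT array of its set, and dKO 2 lay just under the highest of them. Ikzf4-/- was above WT by a log2 change of 0.21 and dKO by 0.15, both with an SE of 0.10 and with an adjusted p of 1 in both (limma, Benjamini-Hochberg). In the control, where Ikzf4 was not targeted, the Ikzf4 signal was 0.14 above WT 4 to 6 (SE 0.10), and the difference of these changes was 0.04 (SE 0.13, limma adjusted p = 0.961). The sources used here do not say where the probes lie relative to the altered part of the gene, so this signal does not check the labels. The Ikzf2 probe set was lower in Ikzf2-/- than in WT 4 to 6 by a log2 change of -0.86 (SE 0.20, limma adjusted p = 0.088), without overlap between the groups. Ikzf2-/- 1, at 10.06, lay nearer the lowest WT array (10.25) than the other Ikzf2-/- arrays did, at 9.14 and 9.22. In dKO against WT 1 to 3 the Ikzf2 change was -0.37 (SE 0.20, limma adjusted p = 1) and the groups overlapped, with dKO 3 at 10.59 and WT 1 at 10.46. The Ikzf2 signal thus did not separate the arrays labelled dKO from WT.

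Ikaros family fingers bind DNA with the core TGGGAA, so the RefSeq promoter windows of the genes (mouse build GRCm38.p6, 250 bases before to 50 after each start) were searched for it on both strands. It was found in the first window of 3 of the 9 genes that had one, Esyt1, Pa2g4 and Rab5b, and in the first window of 22.8% of 8805 tested genes. One of the further windows of Dgka also held it, with 2 matches, so that 4 of all 12 windows of these genes did. The 3 first windows are shown because they hold the core, written along the gene in lower case with each match in capitals (TTCCCA is the match on the opposite strand). A match is a description of the letters and not a bound site.
Esyt1: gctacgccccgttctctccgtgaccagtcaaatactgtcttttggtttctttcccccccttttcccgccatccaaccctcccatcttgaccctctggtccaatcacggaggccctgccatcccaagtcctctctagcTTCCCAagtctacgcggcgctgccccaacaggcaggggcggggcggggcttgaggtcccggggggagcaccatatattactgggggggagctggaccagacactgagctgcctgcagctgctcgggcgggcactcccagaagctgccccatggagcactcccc
Pa2g4: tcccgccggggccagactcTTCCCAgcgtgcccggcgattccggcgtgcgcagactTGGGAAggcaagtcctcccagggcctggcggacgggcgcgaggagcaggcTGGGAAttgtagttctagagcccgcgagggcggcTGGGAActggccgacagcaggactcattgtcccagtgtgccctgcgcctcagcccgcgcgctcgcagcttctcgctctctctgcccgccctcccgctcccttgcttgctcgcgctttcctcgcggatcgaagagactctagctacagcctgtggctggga
Rab5b: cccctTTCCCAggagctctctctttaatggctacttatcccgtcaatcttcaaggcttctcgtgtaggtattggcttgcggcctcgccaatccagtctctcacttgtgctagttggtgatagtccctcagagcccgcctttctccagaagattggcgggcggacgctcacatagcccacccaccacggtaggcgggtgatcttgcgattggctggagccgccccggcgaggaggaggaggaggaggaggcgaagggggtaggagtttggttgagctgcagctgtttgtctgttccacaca
All 3 windows are on the minus strand, at chr10:128525810-128526109 for Esyt1, chr10:128565885-128566184 for Pa2g4 and chr10:128696219-128696518 for Rab5b. Pa2g4 held 4 matches, and Esyt1 and Rab5b held 1 each. The values of all 3 genes are given with the others, in the order of what the genes do.

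Erbb3, Pa2g4 and Rnf41 belong to signalling through ErbB3. Erbb3 encodes a receptor of the epidermal growth factor receptor family that pairs with other family members, Pa2g4 encodes the ErbB3-binding protein EBP1, and Rnf41 encodes NRDP1, a ubiquitin ligase that acts on ErbB3. Erbb3 had a low signal, at 5.19, 5.19 and 5.19 in WT 1 to 3, 5.33, 5.19 and 5.19 in Ikzf4-/- and 5.02, 5.14 and 5.43 in dKO. The groups overlapped, with dKO on both sides of WT. Pa2g4 was 9.86, 9.92 and 9.83 in WT 1 to 3, 9.92, 10.02 and 9.78 in Ikzf4-/- and 9.91, 9.96 and 9.79 in dKO. Both mutant groups spanned the WT values. Rnf41 was 7.05, 7.04 and 7.01 in WT 1 to 3, 7.01, 6.81 and 7.01 in Ikzf4-/- and 7.10, 7.04 and 6.91 in dKO, lowest in Ikzf4-/- 2 and highest in dKO 1.

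Among the genes of enzymes and the cell cycle, Dgka encodes diacylglycerol kinase alpha, which removes the diacylglycerol made on T cell receptor signalling. Dgka was 11.15, 11.19 and 11.32 in WT 1 to 3, 11.09, 10.91 and 11.27 in Ikzf4-/- and 11.09, 11.07 and 11.21 in dKO. Both mutant means were below that of WT, but the groups overlapped. Cdk2, the kinase that works with cyclins E and A at entry into DNA replication, was 7.61, 7.38 and 7.15 in WT 1 to 3, 7.38, 7.38 and 7.38 in Ikzf4-/- and 7.29, 7.46 and 7.38 in dKO. One identical value appeared in 4 of these 9 arrays, and the 3 group means were all 7.38. Suox, the mitochondrial sulfite oxidase, was 8.48, 8.68 and 8.41 in WT 1 to 3, 8.50, 8.47 and 8.24 in Ikzf4-/- and 8.57, 8.48 and 8.33 in dKO, with overlap throughout.

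The remaining genes act in membranes and in the nucleus. Rab5b encodes a GTPase of early endosomes. On the probe set with the higher mean, Rab5b was 7.91, 8.31 and 7.92 in WT 1 to 3, 8.07, 8.46 and 8.45 in Ikzf4-/- and 8.05, 7.63 and 7.92 in dKO. The WT values overlapped both mutant groups, which did not overlap each other. Esyt1 encodes a tether between the endoplasmic reticulum and the plasma membrane, and was 9.10, 9.04 and 9.03 in WT 1 to 3, 9.05, 8.89 and 9.01 in Ikzf4-/- and 9.02, 8.99 and 8.83 in dKO. Every dKO array was below every WT array, by a narrow margin. Smarcc2, a core subunit of the BAF chromatin remodelling complex, was 9.46, 9.56 and 9.42 in WT 1 to 3, 9.44, 9.41 and 9.41 in Ikzf4-/- and 9.37, 9.45 and 9.44 in dKO. Zc3h10, a zinc finger protein, was 6.19, 6.00 and 5.87 in WT 1 to 3, 6.20, 6.07 and 6.22 in Ikzf4-/- and 6.07, 5.84 and 6.07 in dKO. Neither gene separated a mutant group from WT.

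**Figure D1:**
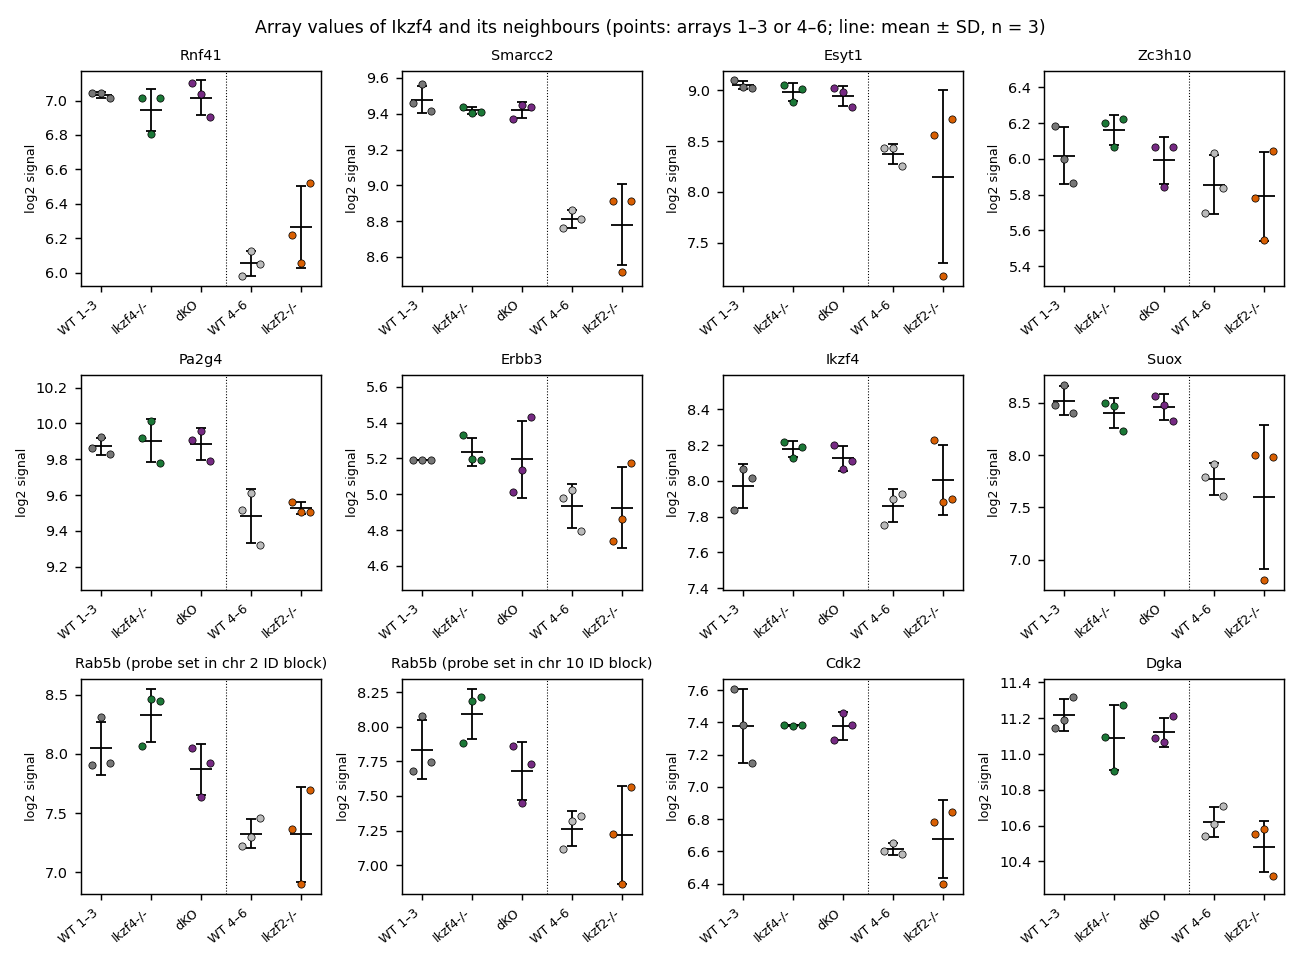
Log2 signal of the 10 genes and Ikzf4 in each of the 15 arrays, by group, with both Rab5b probe sets; points are arrays and bars the mean ± SD (n = 3), and the dotted line parts the 2 sets. Within each set the mutant and WT points overlap for most genes, and Ikzf2-/- 2 lies low for Esyt1 (7.18) and Suox (6.81).

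With loss of Ikzf4 alone, none of the 10 neighbours passed the test. The log2 changes against WT 1 to 3 ran from -0.13 for Dgka (SE 0.10, 95% interval -0.35 to 0.10) to 0.28 for Rab5b (SE 0.19, interval -0.12 to 0.68), with 5 above and 5 below 0. All 10 had an adjusted p of 1 (limma, Benjamini-Hochberg over 10964 genes), where 0% of all tested genes passed, and 0 of 10 had an unadjusted p under 0.05, where 2.18% of all tested genes did. No neighbour had groups without overlap, against 6.54% of all tested genes. The median change was -0.03 for the neighbours and 0.01 for all tested genes.

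With loss of both factors, none of the 10 passed either. The changes ran from -0.18 for Rab5b (SE 0.19) to 0.01 for Pa2g4 (SE 0.09), with 2 above and 8 below 0, and a median of -0.04. All 10 adjusted p-values were again 1 (limma), where 0.0638% of all tested genes passed the adjusted threshold, and 0 of 10 had an unadjusted p under 0.05, against 4.38% of all tested genes. Esyt1 was the 1 gene of 10 whose groups did not overlap, lower in dKO by a log2 change of -0.11 (SE 0.28), where 4.22% of all tested genes were lower without overlap. This comparison shares WT 1 to 3 with the one above, so likeness between them carries no weight of its own.

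Over all 6 arrays with the altered Ikzf4 locus, the mean changes of the neighbours lay between -0.11 and 0.06. The largest was that of Dgka, at -0.11 (SE 0.09, interval -0.30 to 0.08, limma adjusted p = 1), and Zc3h10 was the highest, at 0.06. None of 10 had an unadjusted p under 0.05, against 3.25% of all tested genes, and none had groups without overlap, against 2.42%. No neighbour passed the adjusted threshold, as 0% of all tested genes did. The median absolute change was 0.056 for the neighbours and 0.059 for all tested genes. A missed threshold does not show that a gene kept its level. The widest interval was that of Esyt1, from -0.60 to 0.43. As for every gene, it rests on a spread estimated partly from the Ikzf2-/- arrays. The median SD of all tested genes was 0.193 in Ikzf2-/- and 0.092 to 0.110 in the other groups. Sharing 1 spread may therefore make p-values too large in the first set and too small in the control comparison. Fitted on the 9 arrays of the first set alone, a choice made after seeing the data, Esyt1 was -0.09 (SE 0.06, interval -0.23 to 0.05). In that fit the intervals of all 10 genes lay between -0.30 and 0.36.

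**Figure D2:**
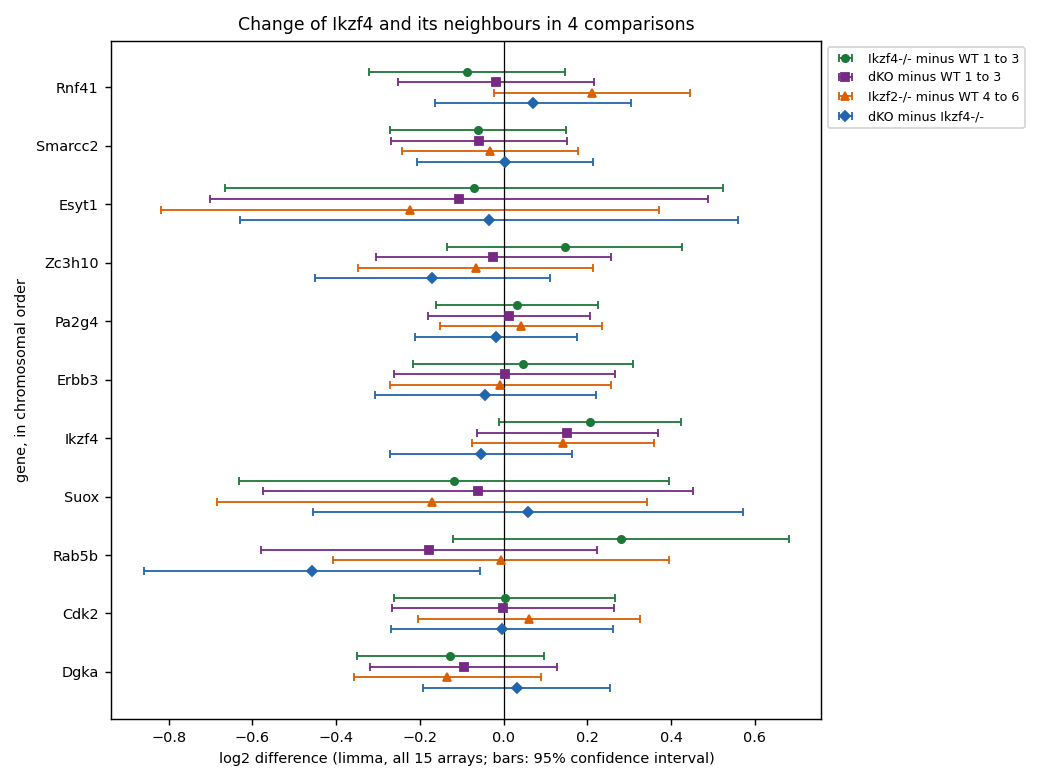
Log2 change of Ikzf4 and the 10 genes, with 95% intervals from limma, in Ikzf4-/- and dKO against WT 1 to 3, Ikzf2-/- against WT 4 to 6, and dKO against Ikzf4-/-. The interval of Rab5b between dKO and Ikzf4-/- is the one that leaves out 0, from -0.86 to -0.06.

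In the control comparison, where Ikzf4 was intact, the neighbours also did not pass the test. Ikzf2-/- against WT 4 to 6 gave changes from -0.22 for Esyt1 (SE 0.28) to 0.21 for Rnf41 (SE 0.11, limma adjusted p = 0.359), and 0.0638% of all tested genes passed the adjusted threshold. Rnf41 was 5.98, 6.12 and 6.05 in WT 4 to 6 and 6.22, 6.06 and 6.52 in Ikzf2-/-, so Ikzf2-/- 2 lay among the WT arrays. None of 10 had an unadjusted p under 0.05, against 16.4% of all tested genes, and none had groups without overlap, against 16.2%.

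The other neighbours overlapped between the groups as well. Dgka was 10.54, 10.61 and 10.71 in WT 4 to 6 and 10.55, 10.58 and 10.32 in Ikzf2-/-, with Ikzf2-/- 3 the lowest. Cdk2 was 6.60, 6.65 and 6.58 against 6.78, 6.40 and 6.84. Rab5b was 7.22, 7.30 and 7.46 against 7.37, 6.90 and 7.70. In both of these genes Ikzf2-/- held the lowest and the highest array. Smarcc2 was 8.76, 8.86 and 8.81 against 8.91, 8.52 and 8.91, and Zc3h10 was 5.70, 6.03 and 5.84 against 5.78, 5.54 and 6.04. Pa2g4 was 9.52, 9.61 and 9.32 against 9.56, 9.50 and 9.51, and Erbb3 was 4.98, 5.02 and 4.79 against 4.74, 4.86 and 5.18. Pa2g4 was the gene whose Ikzf2-/- arrays all fell within the WT range.

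Single arrays set much of the spread in this set. Esyt1 was 8.43, 8.44 and 8.26 in WT 4 to 6 and 8.56, 7.18 and 8.72 in Ikzf2-/-, and Suox was 7.79, 7.91 and 7.61 against 8.01, 6.81 and 7.99. For both genes Ikzf2-/- 2 was far below the other 5 arrays, by -1.31 for Esyt1 and -1.06 for Suox, and 0.602% and 1.31% of all tested genes lay as low or lower. That array was the lowest of 6 for 6 of the 10 neighbours, against 33.6% of all tested genes. It also had a Cd4 signal of 8.78, where the others had 9.42 to 9.67, and a Cd8b1 signal of 7.31, where they had 6.06 to 6.12. Foxp3 was 10.10 there against 10.33 to 10.58 in the others, Il2ra 10.23 against 10.43 to 10.83 and Ctla4 10.51 against 10.56 to 10.84. Whether these signals of that array had a part in its low values was not tested.

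Without Ikzf2-/- 2, the control comparison moved upward. Rnf41 was then 0.32 higher (SE 0.10, limma adjusted p = 0.107) and Esyt1 0.26 higher (SE 0.09, adjusted p = 0.116). These were 2 of 10 at an unadjusted p under 0.05, against 23.9% of all tested genes, and neither passed after adjustment, where 1.54% did.

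**Figure D3:**
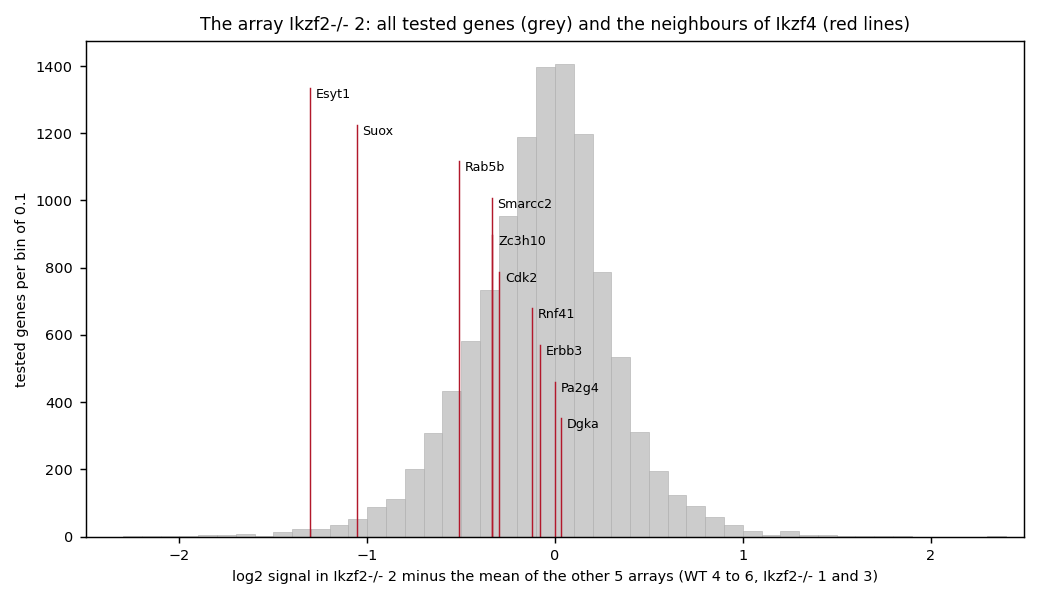
Distribution over all tested genes of the log2 signal in Ikzf2-/- 2 minus the mean of the other 5 arrays of its set, with the 10 genes marked; 5 genes lie beyond the plotted range. Esyt1 (-1.31) and Suox (-1.06) lie in the lower tail and Pa2g4 and Dgka near 0, and the height of the marks has no meaning.

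The change with the altered Ikzf4 locus was then set against that in the control by a direct test. The difference ran from -0.26 for Rnf41 (SE 0.14, interval -0.57 to 0.04, limma adjusted p = 0.597) to 0.14 for Esyt1 (SE 0.37). None of 10 had an unadjusted p under 0.05, against 9.14% of all tested genes, and 0% of these passed after adjustment. Without Ikzf2-/- 2, Esyt1 was at -0.35 (SE 0.11, limma adjusted p = 0.234) and Rnf41 at -0.37 (SE 0.13, adjusted p = 0.256), so 2 of 10 were at an unadjusted p under 0.05, against 14.9% of all tested genes, and 0% passed after adjustment. In both genes the difference came with a higher signal in Ikzf2-/- than in WT 4 to 6.

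Between the groups that both carry the altered locus, Rab5b differed most. It was lower in dKO than in Ikzf4-/- by a log2 change of -0.46 (SE 0.19, 0.728-fold), with an adjusted p of 1 (limma), where 0.0274% of all tested genes passed. It was 1 of 10 at an unadjusted p under 0.05, against 3.48% of all tested genes, and the 1 of 10 without overlap, against 8.27%. The second Rab5b probe set was 7.89, 8.18 and 8.21 in Ikzf4-/- and 7.86, 7.45 and 7.73 in dKO, a change of -0.41 (SE 0.17). The groups did not overlap there either, and the 2 probe sets had r = 0.996 over 15 arrays, so they are not separate evidence. The identifiers beside the first probe set belong to genes of chromosome 2 (18 of 18 named), and those beside the second mostly to chromosome 10 (14 of 16). The Rab5b values from the first probe set may therefore not come from the gene beside Ikzf4 alone, which was not tested. Against WT 1 to 3 the second probe set gave 0.26 (SE 0.17) in Ikzf4-/- and -0.16 (SE 0.17) in dKO. Without Ikzf4-/- 2, Ikzf4-/- 3 or dKO 2, Rab5b no longer passed the unadjusted threshold between dKO and Ikzf4-/-. With the Eif2s3y signal as a covariate, Rab5b was at -0.43 in that comparison (SE 0.20, limma unadjusted p = 0.0501), just over the threshold.

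Some neighbours varied together across arrays with the same number. Pa2g4 and Suox were lowest in the array numbered 3 of each of WT 1 to 3, Ikzf4-/- and dKO, as were 8.99% of all tested genes, and Dgka was highest there, as were 3.81%. This was noticed after the values were seen. Eif2s3y, a gene of the Y chromosome, was 8.17, 8.64 and 8.81 in those 3 arrays and 7.94 in dKO 2, and 2.87 to 3.09 in the other 11. The arrays thus appear to differ in the sex of the mice. The signal was high in dKO 2 and dKO 3 but only in number 3 of WT 1 to 3 and of Ikzf4-/-. Comparisons with dKO were therefore not balanced for it. The part of this signal in these values was not tested. Such agreement was not particular to number 3. Esyt1 was highest in number 1 of each group, as were 5.28% of all tested genes, and Pa2g4 was highest in number 2, as were 4.1%. Over the 9 arrays, the deviations of Pa2g4 and Dgka from their group means had r = -0.912 and those of Esyt1 and Rnf41 r = 0.940, the extremes of 45 pairs with a median of 0.060. The genes most like Dgka over these arrays were Tex44 (r = 0.957), B130055M24Rik (r = 0.952) and Klk14 (r = 0.941), given as a description.

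No gene of the wider neighbourhood passed the adjusted threshold with the altered locus. Of the 60 protein-coding genes nearest Ikzf4, 30 on each side, 29 besides the 10 were tested, and 0 of 29 had an unadjusted p under 0.05 over the 6 arrays with the altered locus, against 3.25% of all tested genes. Their median change was 0.001. The smallest p-values were those of Rbms2 (-0.18, SE 0.09), Nabp2 (0.22, SE 0.12) and Ptges3 (0.22, SE 0.12), each with an adjusted p of 1 (limma). In Ikzf4-/- alone against WT 1 to 3, 1 of 29 had an unadjusted p under 0.05, Tmem198b (-0.23, SE 0.10, limma adjusted p = 1), against 2.18% of all tested genes. In that comparison 1 of 29 was higher without overlap between the groups, against 3.62% of all tested genes. Lower without overlap were 4 of 29, against 2.92%, so this count was above the share of all tested genes (6.54% in both directions together). It is a count of 3 arrays against 3 and was not tested. In dKO against WT 1 to 3, 0 of 29 had an unadjusted p under 0.05, against 4.38%, and 1 was lower without overlap, against 4.22%. In the control comparison 5 of 29 had an unadjusted p under 0.05, with Spryd4, Nabp2, Ormdl2 and Cnpy2 higher and Slc39a5 lower, close to the share of all tested genes (16.4%), and none passed after adjustment. Without overlap there, 6 of 29 were higher, against 10.7% of all tested genes, and 2 were lower, against 5.5%. Counts above the share were thus not particular to the altered locus. Cd63 was 3.62, 7.28 and 3.94 in WT 1 to 3 and between 3.48 and 4.04 in the 6 mutant arrays, so its low mean change of -1.13 (SE 0.66) rests on WT 2.

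**Figure D4:**
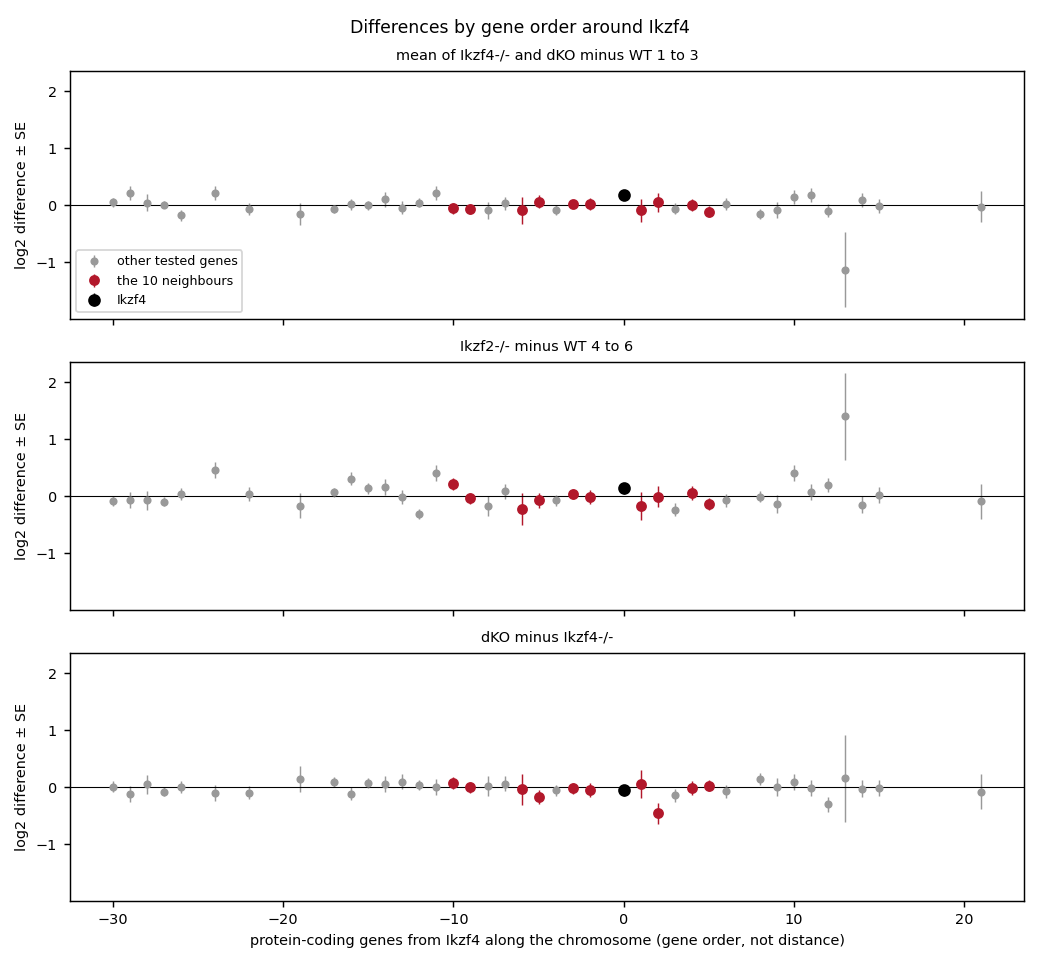
Log2 change (± SE) of the tested genes of the Ikzf4 flank by their place in the gene order. The panels are the mean of Ikzf4-/- and dKO against WT 1 to 3, Ikzf2-/- against WT 4 to 6, and dKO against Ikzf4-/-. In the first comparison the 10 genes lie between -0.11 and 0.06, and the far point is Cd63, at -1.13.

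No partner of the neighbours in their pathways passed the adjusted threshold with the altered locus. Over the 6 arrays, 0 of 3 tested genes of the ErbB3 axis, 0 of 7 diacylglycerol kinases and related genes, 0 of 20 BAF subunits, 0 of 9 early endosome genes and 0 of 2 extended synaptotagmins had an unadjusted p under 0.05. Of 13 Cdk2 partners 1 did, Cdk6, the cyclin D kinase, at -0.27 (SE 0.10, limma adjusted p = 1). The share of all tested genes at that threshold was 3.25%. In dKO against WT 1 to 3, Ccne2 was at 0.30 (SE 0.14) and Cdk6 at -0.27 (SE 0.12), and in Ikzf4-/- Cdk6 was at -0.26 (SE 0.12), each with an adjusted p of 1.

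Eea1, an early endosome tether that binds Rab5, was above the comparison group in 3 comparisons at an unadjusted p under 0.05. It was 0.69 higher in dKO than in Ikzf4-/- (SE 0.14, limma adjusted p = 0.214), 0.57 higher in dKO than in WT 1 to 3 (SE 0.14, adjusted p = 0.366) and 0.45 higher in Ikzf2-/- than in WT 4 to 6 (SE 0.14, adjusted p = 0.143). Rab5b was at -0.46, -0.18 and -0.01 in the same comparisons. The first 2 share the dKO arrays, so they are not separate evidence. In dKO against WT 1 to 3, 4.38% of all tested genes were at that threshold, and in Ikzf2-/- against WT 4 to 6, 16.4%. Between dKO and Ikzf4-/-, 3.48% of all tested genes had an unadjusted p under 0.05, and the list genes that did were Eea1, the BAF subunit Smarcd1 (-0.44, SE 0.11, adjusted p = 0.674) and the cyclin gene Ccna2 (0.78, SE 0.35, adjusted p = 1). They were 1 of 9 early endosome genes, 1 of 20 BAF subunits and 1 of 13 Cdk2 partners, with none in the other lists.

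In Ikzf2-/- against WT 4 to 6, 16.4% of all tested genes had an unadjusted p under 0.05. Of 13 Cdk2 partners 4 were higher and 1 was lower at that threshold, and the 4 with the smallest p were Cks1b (0.86, SE 0.19, limma adjusted p = 0.0821), Ccne2 (0.59, SE 0.14, adjusted p = 0.0863), Ccna2 (0.99, SE 0.35) and Cdc25a (0.32, SE 0.13). Cdk2 itself was at 0.06. Of 20 BAF subunits 2 were higher, Actl6a (0.42, SE 0.10, adjusted p = 0.0848) and Dpf2 (0.31, SE 0.08), and of 9 early endosome genes 1 was higher, Eea1, and 1 lower, Rin1 (-0.32, SE 0.11). Prkcq, the T cell protein kinase C theta, was at -0.29 (SE 0.10), 1 of 7 in its list, and Esyt2 at -0.21 (SE 0.07), 1 of 2. None of these genes passed after adjustment.

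In the difference of changes, the list genes at an unadjusted p under 0.05 were Cks1b (-0.80, SE 0.25), Ccne2 (-0.42, SE 0.18), Actl6a (-0.30, SE 0.13), Dpf2 (-0.26, SE 0.11), Prkcq (0.30, SE 0.14) and Esyt2 (0.23, SE 0.09). They were 2 of 13 Cdk2 partners, 2 of 20 BAF subunits, 1 of 7 diacylglycerol kinases and related genes and 1 of 2 extended synaptotagmins. None of 3 ErbB3 axis genes or 9 early endosome genes was at that threshold, and 9.14% of all tested genes were. The adjusted p-values of the named genes ran from 0.461 to 0.534 (limma), so none passed.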

How the data were processed

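Expression of 35556 probe sets was measured on 15 arrays. The authors deposited log2 signals, made with RMA in Affymetrix Expression Console 1.3.1 per the submitters' processing notes; which arrays were normalized together is not stated. Of the probe sets 21789 had 1 symbol, 1621 several and 12146 were not listed. A gene was read from its probe set of highest mean and tested if any group mean exceeded 4.96, which left 10964 genes. The 5 groups were fitted together with limma 3.58.1 (lmFit, eBayes, R 4.3.3), with Benjamini-Hochberg adjustment at 0.05. Precision is limited by having 3 arrays in a group. The fit was tested on simulated data. The genes and lists were chosen with earlier results of these data known. All 10 neighbours are named, with the 3 other flank genes of smallest p, list genes at an unadjusted p under 0.05 (at most 4 a list) and the 3 genes most correlated with Dgka; Cd63 was added after its values were seen. Sequences are from RefSeq. Same-numbered arrays of Ikzf4-/- deviated together with those of WT 1 to 3 (r = 0.138 to 0.303) and of dKO (0.196 to 0.428), a pairing that rests on the values alone; WT and dKO did not all exceed 0.1 (0.045 to 0.173).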

Additional observations from a re-analysis of the deposited data

How the results depend on the processing

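No neighbour passed the adjusted threshold in any of 1664 values under the alternatives run, and the smallest adjusted p was 0.107 (limma), for Rnf41 in Ikzf2-/- without Ikzf2-/- 2. With all 6 WT arrays pooled across sets, medians over the neighbours were 0.26 for Ikzf4-/-, 0.22 for dKO, 0.26 for their mean and -0.34 for Ikzf2-/-. In turn, 1, 0, 3 and 1 of 10 were at an unadjusted p under 0.05. For the mean, 30.9% of all tested genes were at that threshold, near the share of the neighbours. This alternative takes in the offset between the sets. For the other counts in this paragraph no such share was taken, except those given above without Ikzf2-/- 2, so they are not read as results about the neighbours. With the mean B cell signal in the model, 1 of 10 passed that threshold in Ikzf4-/- (Zc3h10) and 1 in the difference of changes, whose median was 0.18. In Ikzf2-/- 1 of 10 passed with quantile normalization and 1 with array weights, both Rnf41. With array weights, 1 passed in the difference of changes, with a median of -0.15. With the Eif2s3y covariate 0 passed between dKO and Ikzf4-/-, where Rab5b lay just over the threshold. Leaving out 1 array at a time gave 0 to 2 of 10 in Ikzf2-/- and in the difference of changes, 0 to 1 between dKO and Ikzf4-/-, and 0 to 0 in the rest. Medians then ran from -0.08 to -0.01 in Ikzf4-/-, -0.09 to -0.01 in dKO, -0.06 to -0.005 in their mean, -0.12 to 0.15 in Ikzf2-/-, -0.03 to 0.01 between dKO and Ikzf4-/- and -0.16 to 0.10 in the difference. Of the 1664 values, 34 turned sign by over 1 SE, 20 of them with pooled WT and 6 without Ikzf2-/- 2; other causes were not tested.

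With the replicate number as a block, Rab5b between dKO and Ikzf4-/- was at -0.46 (SE 0.17, limma adjusted p = 0.654), and the block changed no count of neighbours. Over all genes, the adjusted count in dKO against WT was 7 and 1 with the block, 0 without a filter and 21 with array weights; in Ikzf2-/- it was 7, and 0 to 409 leaving out 1 array, the highest without Ikzf2-/- 1. Pooled WT was not run for dKO against Ikzf4-/- or the difference, and no paired analysis was possible for Ikzf2-/- because its arrays and WT 4 to 6 share no numbers.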
